A study of Mus musculus with 10 samples.

Results

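The 35 genes described here are interferon-stimulated genes, a named list that was looked up by symbol in a table of read counts for 32285 mouse genes. All 35 were found, and each averaged 10 or more counts per library. The list is split here into Rsad2 and Isg20, which were known from earlier results of these data to follow the haemoglobin share of a library, and the remaining 33. RNA was taken from the blood of C57/BL6J mice, with leukocyte given as the cell type, after control conditions (Con, 0 h), after sleep deprivation (SD) of 6, 12, 24 or 48 h, or after SASD, a published way of restricting sleep, of 6, 12, 24, 48 or 120 h. Every group was a single library made from the pooled RNA of 3 mice, and all mice were bled retro-orbitally under pentobarbital. How SD and SASD were carried out, the age and sex of the mice and the hour of bleeding are not stated in the labels.

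Interferons are secreted proteins that warn cells of infection. Type I interferons bind the receptor of Ifnar1 and Ifnar2, whose kinases Jak1 and Tyk2 phosphorylate STAT proteins, STAT2 among them. STAT2 joins IRF9 in the factor ISGF3, which enters the nucleus and binds a short element, the interferon-stimulated response element, in front of the genes that carry its name. The products of these genes sense viral nucleic acids, degrade or block viral RNA, and restrain the pathway itself. In blood, leukocytes of most kinds can respond, and monocytes and plasmacytoid dendritic cells are known for strong responses.

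The promoters are shown first for the 5 members whose levels separated the libraries by haemoglobin share. Each line gives the 150 bases that end just before the gene's start, 5′ to 3′ on the gene's own strand, from RefSeq (GRCm38.p6). The capitals mark matches on either strand to GAAA, 2 bases of any kind and GAAA, the core of the response element, and overlapping matches run together. The regions are chr12:26456453-26456602 (minus strand) for Rsad2, chr7:78913274-78913423 (plus) for Isg20, chr4:156200819-156200968 (minus) for Isg15, chr19:34640721-34640870 (plus) for Ifit1 and chr5:120777662-120777811 (minus) for Oas3.
Rsad2: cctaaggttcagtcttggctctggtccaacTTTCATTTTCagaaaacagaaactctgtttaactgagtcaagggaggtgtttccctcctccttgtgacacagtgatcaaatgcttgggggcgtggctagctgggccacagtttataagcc
Isg20: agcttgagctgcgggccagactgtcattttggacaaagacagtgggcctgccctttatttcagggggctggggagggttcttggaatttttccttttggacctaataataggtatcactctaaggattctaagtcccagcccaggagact
Isg15: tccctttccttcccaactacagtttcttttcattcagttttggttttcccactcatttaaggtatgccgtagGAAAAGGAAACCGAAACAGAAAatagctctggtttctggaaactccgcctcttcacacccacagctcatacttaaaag
Ifit1: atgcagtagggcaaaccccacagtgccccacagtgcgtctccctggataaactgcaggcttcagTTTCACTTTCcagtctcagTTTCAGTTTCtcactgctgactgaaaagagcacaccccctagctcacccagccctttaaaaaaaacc
Oas3: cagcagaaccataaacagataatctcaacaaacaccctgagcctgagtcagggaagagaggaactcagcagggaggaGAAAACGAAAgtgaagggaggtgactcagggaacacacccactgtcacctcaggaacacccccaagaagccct
Rsad2 held 1 match, Isg15 3 overlapping matches, Ifit1 2 and Oas3 1, while the Isg20 stretch held 0. Isg20 has 3 RefSeq starts, of which the first is shown, and their windows of 300 bases held 0 matches as well. Over windows of 300 bases (250 before and 50 after a RefSeq start), 16 of the 26 members with an entry held the motif, or 61.5%, against 1079 of all 27025 genes, or 3.99%. Another list of interferon-stimulated genes held it in 38 of 79, or 48.1%. Rsad2 and Isg20, whose levels had nearly the same pattern below, differed in these letters in the windows searched. A match is a description of the letters and does not show that a factor was bound.

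The libraries fell into 2 sets by the share of counts that haemoglobin genes took, a measure of red cell RNA. In the libraries called haemoglobin-poor below this share was 0.727% (Con), 0.316% (SD 48 h) and 0.275% (SASD 48 h). The remaining 7, called haemoglobin-rich, ranged from 3.57% in SASD 120 h to 6.96% in SASD 24 h. Total counts ran from 7825120 (SASD 24 h) to 27501393 (Con). Olfactory receptor genes, which serve the nose, divided the libraries the same way. At equal depth 54.0% of 1134 such genes had a count in Con, 38.2% in SASD 48 h, 18.9% in SD 48 h and 2.65% to 4.18% in the haemoglobin-rich libraries. Markers of B cells, T cells, monocytes, neutrophils and NK cells were all counted, summing over the 10 libraries to 3994 to 6356, 1075 to 1738, 1184 to 3062, 2202 to 12115 and 458 to 614 CPM. CPM here are counts scaled to equal library size by TMM, a factor that sets the bulk of genes equal between libraries. Erythroid markers (495 to 16921 CPM) and platelet markers (2709 to 19143 CPM) were present as well, so the leukocyte label did not describe all of the RNA. In bulk RNA, fewer cells of a type and less RNA per cell cannot be told apart.

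**Figure D1:**
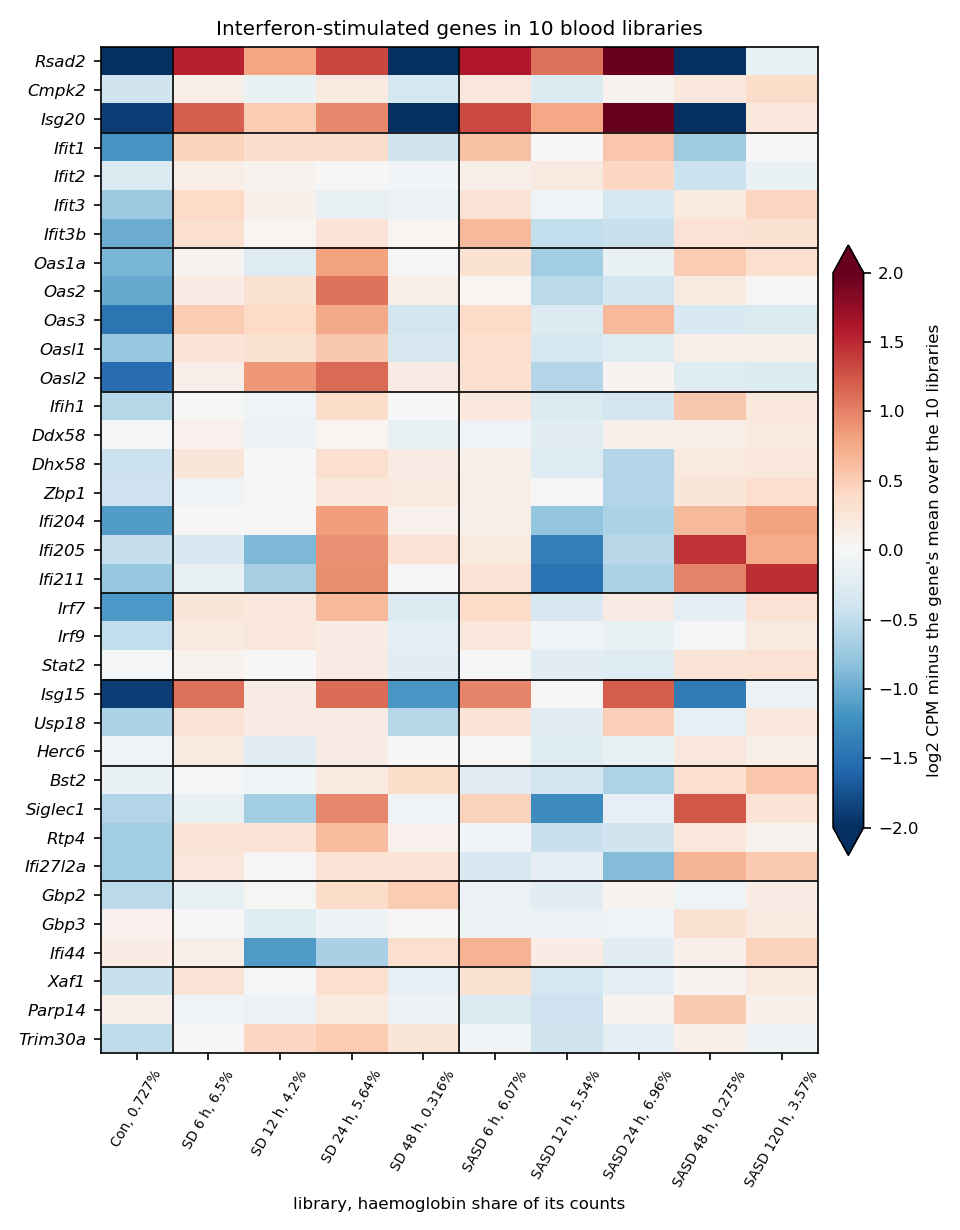
Level of the 35 members (rows, grouped by role between the horizontal lines) in the 10 libraries (columns, with the haemoglobin share of each), as log2 CPM minus the gene's mean over the libraries. Rsad2, Isg20 and Isg15 are low in Con and both 48 h libraries, whereas 19 members have their lowest value in Con and 11 their highest in SD 24 h.

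Among the antiviral enzymes, Rsad2 and Isg20 were the members of widest range, and the third gene, Cmpk2, did not share their pattern. Rsad2 encodes viperin, which makes a nucleotide that ends viral RNA chains, and lies on chromosome 12 (26442746 to 26456452 in mm10). It stood at 120 CPM in Con and at 2085, 1239, 1813 and 91.9 CPM in SD 6, 12, 24 and 48 h. In SASD it stood at 2174, 1511, 3369, 92.8 and 653 CPM at 6, 12, 24, 48 and 120 h. The 3 haemoglobin-poor libraries (91.9 to 120 CPM) did not overlap the other 7 (653 to 3369 CPM), and the mean of the 7 was 18.1 times that of the 3.

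Isg20, an exonuclease that degrades RNA from its 3′ end, had much the same pattern. Its levels were 40.4 CPM in Con, 342, 211, 291 and 32.4 CPM in the SD series and 373, 253, 603, 19.6 and 173 CPM in the SASD series. SASD 24 h was again highest and the 3 haemoglobin-poor libraries lowest, here with SASD 48 h below SD 48 h, and with a ratio of means of 10.4. Per kilobase of exon, where levels of genes can be compared, Rsad2 had the highest median level of all members at 317 CPM per kilobase, Isg20 125, Ifi27l2a 70.3 and Trim30a 43.0. The lowest were Ifi44 at 0.158, Ifi205 at 0.525 and Siglec1 at 0.779 CPM per kilobase.

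Rsad2 and Isg20 were chosen for following the haemoglobin share, so the next values only describe how closely they did. Of the 21 pairs of haemoglobin-rich libraries, each took the order of the share in 20. Over all 10 libraries, the genes whose log2 CPM was most like that of Rsad2 (of 13981) were Fech, the last enzyme of haem synthesis (Pearson r = 0.997), Hagh, a glyoxalase (0.997), Gm10371 (0.996), F930017D23Rik (0.996) and Slc25a39, a mitochondrial glutathione carrier (0.996). Isg20 was at place 14 in this order (r = 0.989). Of the remaining members Isg15 came next at place 143 (r = 0.952), then Ifit1 at 352 (0.913). Ifit2 (902, 0.841), Usp18 (940, 0.837) and Oas3 (1347, 0.783) followed. Cmpk2 stood at place 3692 (r = 0.383), and Gbp3 was last of the members at 12216 (r = -0.668). All points of these correlations share their libraries, so they describe 10 libraries and are no test.

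**Figure D2:**
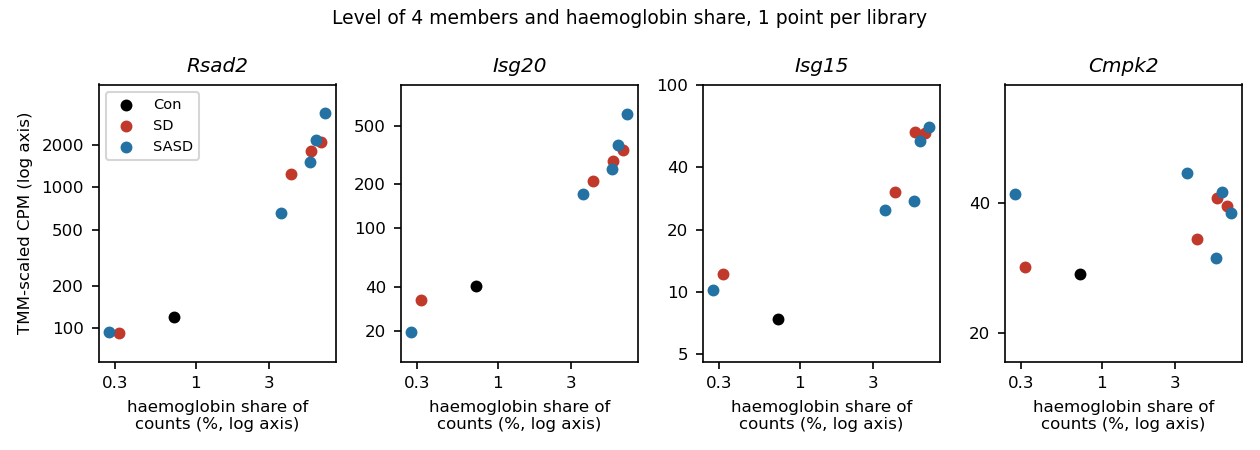
Level (TMM-scaled CPM, log axis) of Rsad2, Isg20, Isg15 and Cmpk2 against the percentage of counts in haemoglobin genes (log axis), 1 point per library, coloured by Con, SD and SASD. The first 3 genes rise along the share in both series, with ratios of means of 18.1, 10.4 and 4.56, whereas Cmpk2 stays between 27.4 and 46.9 CPM.

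Cmpk2, a mitochondrial nucleotide kinase gene that neighbours Rsad2 and is often induced with it, stood at 27.4 CPM in Con, at 39.2, 32.9, 41.0 and 28.3 CPM in SD and at 42.3, 29.8, 37.8, 41.9 and 46.9 CPM in SASD. The haemoglobin-poor SASD 48 h was the third highest. Its 10 values spanned 1.71 times, against 36.7 times for Rsad2, and it took the order of the haemoglobin share in 9 of 21 pairs. Of the 35 members, 5 were higher in all 7 haemoglobin-rich libraries than in the 3 poor ones (Rsad2, Isg20, Isg15, Ifit1 and Oas3), beside 9.4% of 13982 genes, and 0 were lower in all 7, beside 7.68%. Rsad2 and Isg20 were chosen for this pattern, and of the remaining 33 members 3 had it, a share near the background. With raw library totals in place of TMM, Oas3 left that set and 2 of the 33 remained, beside 4.21% of genes.

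Isg15 was the remaining member that varied most with time. It encodes the ubiquitin-like protein that is attached to others in an interferon response. Its levels were 7.36 CPM in Con, 58.4, 30.3, 59.3 and 12.2 CPM in SD 6, 12, 24 and 48 h, and 53.5, 27.6, 62.9, 10.2 and 25 CPM in SASD 6, 12, 24, 48 and 120 h. SD and SASD at a shared time lay close together, both were lower at 12 h than at 6 and 24 h, and the 3 haemoglobin-poor libraries were lowest. The order of the haemoglobin share was taken in 18 of 21 pairs, a number reached by 3.19% of genes.

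Differences between the 4 shared times were tested over the 8 SD and SASD libraries, the method being a term of the fit. By the quasi-likelihood test of edgeR, with Benjamini-Hochberg adjustment over all genes, 3 of 35 members passed, Isg15, Rsad2 and Isg20, beside 137 of 13370 genes, or 1.02%. The last 2 were chosen for this pattern and their call is only a description. Isg15 changed with time (edgeR adjusted p = 0.00441), its level at 12, 24 and 48 h standing at log2 ratios of -0.96, 0.12 and -2.35 to that at 6 h. Ifit1, which binds the 5′ ends of foreign RNA, came next without passing (edgeR adjusted p = 0.0775, with -0.34, -0.07 and -1.10). Limma called the same 3 members (1.44% of genes), DESeq2's test added Ifit1 and Oas3 (7.23% of genes), and 9 members passed with no count minimum (6.95%). Without 24 h 4 passed, Ifit1 among them (3.75% of genes). Without the 48 h libraries 0 members and 0 of 12841 genes passed, and Isg15 had an edgeR adjusted p of 0.257. At an unadjusted p under 0.05 of edgeR's test stood 8 of 34 members there, beside 619 genes, or 4.82%. With 48 h included these were 7 of 35 members and 18.4% of genes. As both 48 h libraries were haemoglobin-poor and the other 6 were not, the time of 48 h and the haemoglobin share cannot be told apart in this fit.

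The enzymes around Isg15 did not all share its pattern. Ube2l6, the gene of the E2 enzyme that conjugates ISG15, came from a longer list of interferon-stimulated genes and was the only one of its 90 tested genes to pass the test between times. It stood at 112 CPM in Con, 909, 598, 782 and 58.1 CPM in SD, and 880, 776, 1513, 55.2 and 382 CPM in SASD. It changed with time (edgeR adjusted p = 0.00799; log2 ratios of -0.41, 0.30 and -4.01 to 6 h), and it took the order of the haemoglobin share in 21 of 21 pairs. Usp18, the protease that removes ISG15 and restrains the interferon receptor, ran from 11.7 CPM in Con to 25.2 CPM in SASD 24 h, the same extremes as Isg15. It took the order of the haemoglobin share in 17 of 21 pairs, as did Ifit1, Ifit2 and Oas3, a number reached by 5.39% of genes. Herc6, the mouse ligase for ISG15, ran from 31.2 to 43.6 CPM, a range of 1.40 times.

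A different pattern held for most of the list: Con was the lowest library. In 19 of the 35 members Con lay below all 9 SD and SASD libraries, beside 13.8% of genes, and in 0 members it lay above all 9, beside 11.6%. The 19 held all 5 OAS genes, Ifit1, Ifit3 and Ifit3b, Irf7 and Irf9, Isg15, Usp18, Ifih1, Ifi204, Rtp4, Gbp2, Cmpk2, Xaf1 and Trim30a. Without Rsad2 and Isg20 the count was 19 of 33. It depended on the scaling: with DESeq2's size factors it was 17, beside 10.1% of genes, and with raw totals 7 (Ifit1, Ifit3b, Irf7, Isg15, Oas2, Oas3 and Oasl2), beside 2.83%. With raw totals the median log2 ratio of all genes over Con stood at -0.03 to -0.53 in the 9 libraries, beside -0.03 to 0.07 with TMM.

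The OAS genes, a family named for enzymes that make the 2′-5′ oligoadenylates that switch on RNase L, had the clearest levels. Oasl2, an OAS-like gene with ubiquitin-like domains, stood at 33.0 CPM in Con, 102, 173, 208 and 106 CPM in SD and 119, 63.0, 98.9, 80.0 and 79.0 CPM in SASD. Oas3 stood at 33.0 CPM in Con, 130, 120, 155 and 70.5 CPM in SD and 120, 75.6, 143, 73.8 and 74.7 CPM in SASD. Oas2 stood at 17.4 CPM in Con, 38.6, 43.4, 74.6 and 38.1 CPM in SD and 36.1, 24.2, 27.1, 39.7 and 35.5 CPM in SASD. In all 3 genes Con was lowest and SD 24 h highest, and Oas1a (7.91 to 26.0 CPM) and Oasl1 (11.2 to 27.4 CPM) had the same extremes. For Oas1a, 40.9% of its stretches of 100 bases also occur in Oas1g, so its count is uncertain. Oasl1 overlaps Gm13822 on the other strand.

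Irf7, the factor that amplifies interferon production, had its lowest value in Con as well. It stood at 37.7 CPM there, at 99.3, 97.5, 132 and 68.7 CPM in SD and at 109, 67.0, 94.3, 73.5 and 103 CPM in SASD. The ISGF3 genes varied less, Irf9 between 90.5 CPM in Con and 149 CPM, and Stat2 between 88.0 and 129 CPM with Con, at 102 CPM, inside the range. Irf7 overlaps Phrf1 on the other strand and Irf9 overlaps Rnf31, and the counting used no strand.

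As a test, the 9 SD and SASD libraries were set against Con, a single library that the model assumes to vary like the other 9. None (0) of the 35 members passed edgeR's test, nor did any of 13982 genes (0), of which 8.53% were at an unadjusted p under 0.05, against 14 of the 35 members. DESeq2 called 1 gene (0.00715%) and limma 441 (3.15%), of which 438 were lower than Con, and each called 0 members. The median log2 ratio of the members was 0.75 and 31 of 35 were above 0, beside a median of 0.01 over all genes. The lowest p-values belonged to Irf7 (1.27 ± 0.35, SE; edgeR adjusted p = 0.372), Oas3 (1.65 ± 0.49, 0.393), Ifit1 (1.33 ± 0.45, 0.439) and Oasl2 (1.75 ± 0.59, 0.439). By role, the medians were 1.15 for the OAS genes, 0.95 for the IFIT genes, 0.76 for the membrane proteins, 0.62 for the sensors and -0.10 for the GTPases. Con also differed from the others in depth and olfactory counts. In the same fit the median log2 ratio was 2.73 for haemoglobin genes, 2.64 for erythroid, 1.14 for neutrophil, 0.84 for platelet and 0.53 for monocyte markers. With the haemoglobin set of a library as a further term, the members' median was 0.59 beside -0.01 for all genes, with 32 of 35 above 0. The part of depth, olfactory counts and these markers in the result was not tested further.

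Within the haemoglobin-poor libraries alone, which lie in the same haemoglobin set, SD 48 h and SASD 48 h could each be set against Con, which both ratios share. In SD 48 h, 6 of 34 members with enough counts were at least 2-fold above Con (4.42% of genes were), and the median log2 ratio was 0.59 beside 0.03 for all genes. They were Oasl2 at 3.21 times Con (95% counting interval 2.97 to 3.47), Ifi204 at 2.30 (2.04 to 2.59), Oas2 at 2.19 (1.94 to 2.46), Oas3 at 2.13 (1.96 to 2.33), Gbp2 and Ifit3b. In SASD 48 h, 11 of 35 were at least 2-fold above Con (1.48% of genes), with a median of 0.61 beside 0.03, and Isg20 was at least 2-fold below (6.93% of genes). Ifi205 led at 3.79 times Con (2.77 to 5.25), then Siglec1 at 3.54 (2.90 to 4.34), Ifi204 at 3.41 (3.10 to 3.77) and Ifi211 at 3.36 (2.79 to 4.07). With raw totals 2 and 11 members were at least 2-fold higher. Monocyte markers had median log2 ratios of 0.73 and 1.04 in the same libraries, with 5 and 7 of 12 at least 2-fold higher. Neutrophil markers had 2.67 in SD 48 h, with 14 of 14 at least 2-fold higher, and 0.14 in SASD 48 h. Haemoglobin genes still differed within this set, with -0.94 and -1.33, and erythroid markers had -0.16 and -1.05. The part of these in the members' values was not tested. Each ratio rests on 1 library a side, and the intervals, exact conditional binomial ones, cover counting error only.

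Against the same Con, the haemoglobin-rich libraries gave 12 of 34 members at least 2-fold higher in SD 6 h (3.7% of genes), 11 in SD 12 h (6.42%), 17 in SD 24 h (6.57%), 15 in SASD 6 h (5.96%), 5 in SASD 12 h (4.28%), 8 in SASD 24 h (7.89%) and 15 in SASD 120 h (2.44%). Con being haemoglobin-poor, these 7 ratios cross the haemoglobin sets. Rsad2 and Isg20, chosen for that difference, are counted in each. The 5 of SASD 12 h were Rsad2, Isg20, Isg15, Ifit1 and Oas3, the members that separated the sets. Without Rsad2 and Isg20 the median log2 ratios, in the order above, were 0.67, 0.61, 0.94, 0.73, 0.29, 0.36 and 0.81. The part of the haemoglobin share in these values was not tested. None (0) of the members in these 7 ratios was at least 2-fold lower, beside 7.24%, 8.0%, 7.49%, 6.53%, 8.16%, 9.29% and 7.99% of genes in the same order. With raw totals the members at least 2-fold higher numbered 7, 7, 13, 8, 3, 6 and 11, and 1 was lower in SASD 12 h. In SASD 24 h the members' median of 0.39 turned to -0.11 with raw totals, where the median of all genes was -0.53. In SASD 120 h all 34 members with enough counts were above 0, led by Rsad2 at 5.45 times Con (5.24 to 5.67), Ifi211 at 4.70 (3.81 to 5.81), Isg20 at 4.27 (3.98 to 4.59) and Ifi204 at 3.81 (3.40 to 4.27).

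The next comparison set SD against SASD at the 4 shared times, the 2 libraries of a time lying in the same haemoglobin set. None (0) of 35 members and 0 of 13370 genes passed edgeR's test with time as a block, which asks for a steady difference over the times. At an unadjusted p under 0.05 stood 4 members and 8.09% of genes, limma called 0 genes, and DESeq2 169 (1.26%) with 0 members among them. Of the 35 members 24 were above 0, with a median log2 ratio of 0.09 beside -0.00 for all genes. Trim30a, a ubiquitin ligase gene that dampens Toll-like receptor signalling, had 0.42 ± 0.15 (SE over 4 times; edgeR adjusted p = 0.549), Oasl2 0.66 ± 0.25 (0.566), Rtp4, a receptor chaperone gene, 0.46 ± 0.19 (0.590) and Gbp2, a GTPase gene of defence against intracellular pathogens, 0.27 ± 0.12 (0.613). The median was 0.01 without 12 h, -0.01 without 24 h and 0.25 without 48 h. With no count minimum 1 member passed, Oasl2 (edgeR adjusted p = 0.0132), beside 1.43% of genes.

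Time by time, the members' median stood near equality at 6 h, higher in SD at 12 and 24 h and lower in SD at 48 h. At 6 h the 33 members with enough counts had a median log2 ratio of -0.02, and 0 members were at least 2-fold apart (0.104% of genes were higher and 0.901% lower). The widest ratios were 0.658 for Siglec1 (0.462 to 0.929), 1.44 for Ifi27l2a (1.23 to 1.70), 0.753 for Ifi211 (0.551 to 1.03) and 1.26 for Rtp4 (1.08 to 1.48). At 12 h the median was 0.31 beside 0.00 for all genes, 28 of 33 members were above 0, and Oasl2 alone was at least 2-fold higher (2.83% of genes). Oasl2 stood at 2.74 times SASD (2.49 to 3.02), Oas2 at 1.79 (1.52 to 2.12), Trim30a at 1.78 (1.66 to 1.91) and Ifi204 at 1.74 (1.46 to 2.08).

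At 24 h the difference was widest. Of 34 members 8 were at least 2-fold higher in SD (3.88% of genes), namely Ifi211, Ifi204, Oas2, Ifi205, Ifi27l2a, Siglec1, Oasl2 and Rtp4, and Isg20 was at least 2-fold lower (3.2% of genes). The median was 0.50, or 0.60 without Rsad2 and Isg20, beside 0.03 for all genes. Ifi211 stood at 2.96 times SASD (2.02 to 4.44), Oas2 at 2.75 (2.34 to 3.26), Ifi204 at 2.77 (2.32 to 3.31) and Ifi205 at 2.76 (1.37 to 6.15), the last from 45 and 10 counts. By role the median was 1.08 for the membrane proteins, 0.94 for the OAS genes, 0.89 for the sensors, 0.43 for the transcription factors, 0.00 for the IFIT genes and -0.09 for the ISG15 system. With raw totals 10 members were at least 2-fold higher and 0 lower, with a median of 0.69 beside 0.22 for all genes, and 5 were higher when a pair had to average 100 counts.

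Markers of other cells moved in the same pairs. Monocyte markers had medians of -0.37, 0.20, 0.77 and -0.24 at 6, 12, 24 and 48 h, highest at 24 h like the members' -0.02, 0.31, 0.50 and -0.23. At 24 h 3 of 12 monocyte markers were at least 2-fold higher and their summed level was 3062 CPM in SD and 1941 CPM in SASD, none of them being at 0. Neutrophil markers had medians of 0.13, 1.57, 1.19 and 2.59, and erythroid markers 0.25, -0.32, -0.83 and 0.52. Platelet markers had -0.28, -0.16, -1.28 and 0.88, with 11 of 12 at least 2-fold lower in SD at 24 h. The part of these cells in the members' ratios was not tested.

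At 48 h the members' median was -0.23 beside 0.0 for all genes, and 8 of 34 members were above 0. With raw totals the medians were -0.36 and -0.12. None (0) of the 34 were at least 2-fold higher in SD (4.14% of genes), and Siglec1 and Ifi205 were at least 2-fold lower (1.63% of genes). Siglec1, the sialic acid receptor of macrophages and activated monocytes, stood at 0.398 times SASD (0.311 to 0.506), Ifi205 at 0.447 (0.309 to 0.633), Ifi211 at 0.499 (0.402 to 0.615) and Isg20 at 1.65 (1.46 to 1.87). The order of SD and SASD was thus the reverse of 24 h for Siglec1, Ifi205 and Ifi211. It was also reversed for Ifi204 at 0.673 (0.611 to 0.742) and Ifi27l2a at 0.765 (0.691 to 0.847). Of the others 2-fold higher in SD at 24 h, Oas2 stood at 0.96 (0.866 to 1.06) and Rtp4 at 0.905 (0.808 to 1.01). Oasl2 stayed higher in SD at 1.32 (1.24 to 1.41). Each of these ratios is from single libraries.

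**Figure D3:**
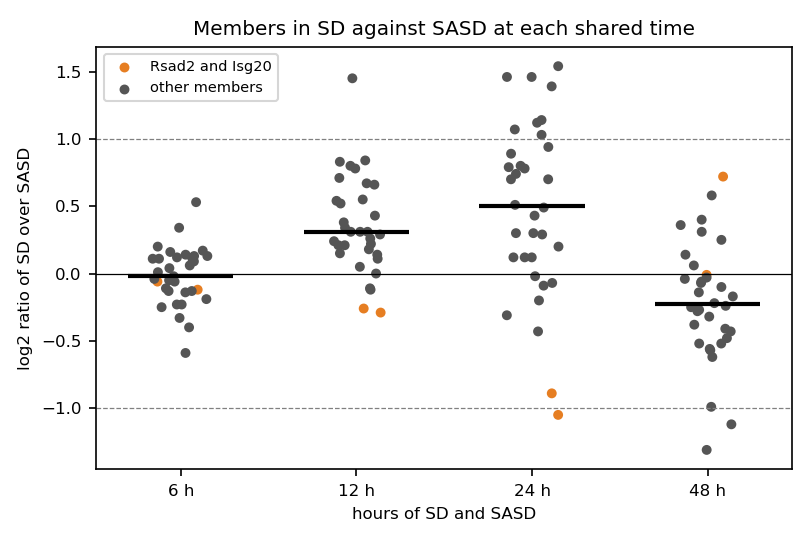
Log2 ratio of SD over SASD at 6, 12, 24 and 48 h for each member with enough counts (points, Rsad2 and Isg20 in orange, horizontal scatter only for view), with the median as a bar and 2-fold as dashed lines. The medians are -0.02, 0.31, 0.50 and -0.23, and 8 members lie above the upper dashed line at 24 h.

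The sensors of viral and foreign nucleic acid differed in range. Of the RNA helicase genes, Ddx58 (RIG-I) ran from 102 to 136 CPM, a range of 1.33 times. Ifih1 (MDA5) ran from 13.5 to 29.0 CPM, or 2.14 times, and Dhx58 (LGP2), which overlaps an antisense gene, from 16.5 to 30.7 CPM, or 1.86 times. Zbp1, a sensor of left-handed nucleic acid, ran from 28 to 53.1 CPM. The PYHIN genes, named for the domains of their DNA-binding products, had ranges of 3.88 to 7.68 times. Ifi204 stood at 16.8 CPM in Con, 36.1, 36.9, 65.2 and 38.6 CPM in SD and 39.6, 21.2, 23.6, 57.3 and 63.9 CPM in SASD. It was highest in SD 24 h, SASD 120 h and SASD 48 h and lowest in Con. Ifi205 (0.869 to 6.13 CPM) and Ifi211 (2.82 to 21.7 CPM) were lowest in SASD 12 h. Of the stretches of 100 bases, 56.9% of Ifi211, 15.0% of Ifi205 and 10.7% of Ifi204 are shared with each other or with Mndal, so their counts are uncertain.

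Among the membrane proteins and receptors, Siglec1 stood at 4.03 CPM in Con, 5.44, 3.73, 11.8 and 5.68 CPM in SD and 8.28, 2.50, 5.36, 14.3 and 7.32 CPM in SASD. It was highest in SASD 48 h and SD 24 h, and those libraries also held the 2 highest sums of monocyte markers, 2972 and 3062 CPM. SD 48 h had a sum of 2784 CPM, yet Siglec1 was lower there than in SASD 6 h and SASD 120 h. The sums in those libraries were 1817 and 2369 CPM. The part of monocytes in the level of Siglec1 was not tested. Ifi27l2a, a small protein's gene that interferon strongly induces, ran from 16.2 CPM in SASD 24 h to 47.5 CPM in SASD 48 h. Bst2 (tetherin), which holds budding viruses at the cell surface, ran from 14.1 to 31.5 CPM, and Rtp4 from 18.3 to 45.4 CPM. Rtp4 overlaps 2 other genes, and 9.28% of its stretches of 100 bases occur elsewhere.

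The IFIT genes bind viral RNA. Ifit1 stood at 13.5 CPM in Con, 41.7, 39.3, 39.2 and 23.2 CPM in SD and 45.9, 30.9, 45.1, 18.7 and 30.9 CPM in SASD, with the haemoglobin-poor libraries lowest. Ifit2 ran from 60.7 to 109 CPM, Ifit3 from 14.2 to 31.7 and Ifit3b from 3.45 to 10.8. Ifit3 and Ifit3b are near copies that share 31.7% and 27.4% of their stretches, so the split of reads between them is uncertain.

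Of the GTPases, Gbp2 stood at 26.4 CPM in Con, 34.5, 39.1, 49.5 and 54.2 CPM in SD and 35.5, 32.7, 40.1, 36.1 and 42.5 CPM in SASD. It was the one member with its highest value in SD 48 h, and its SD values were in the order of the hours. Gbp3 stayed between 34.7 and 50.5 CPM, and Ifi44 was scarce at 0.403 to 1.43 CPM. Among the other effectors, Trim30a stood at 127 CPM in Con, 180, 241, 255 and 213 CPM in SD and 173, 136, 157, 194 and 168 CPM in SASD. Its 3 highest values were all in SD. Xaf1, an antagonist of the apoptosis inhibitor XIAP, ran from 15.8 to 27.1 CPM, and Parp14, an ADP-ribosyltransferase, from 116 to 222 CPM.

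The course over hours of SD was fitted as a slope on log2 of 1 plus hours divided by 6, over Con and the 4 SD libraries. None (0) of 35 members passed edgeR's test, beside 18 of 14562 genes (0.124%), all rising, and 5 members were at an unadjusted p under 0.05 (10.4% of genes). DESeq2 called 456 genes (3.13%) and 1 member, Gbp2, and limma 69 genes (0.474%) and 0 members. The median slope of the members was 0.17 beside -0.01 for all genes, and 28 of 35 were above 0. Gbp2 had a slope of 0.33 ± 0.05 (SE; edgeR adjusted p = 0.0779), Zbp1 0.19 ± 0.05 (0.291), Bst2 0.15 ± 0.05 (0.429) and Ifi27l2a 0.25 ± 0.09 (0.442). Without Con the members' median was -0.03. In the fit with Con, monocyte markers had a median slope of 0.28 and neutrophil markers of 0.84.

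With the haemoglobin set of a library as a further term, 10 of 35 members rose along SD and 0 fell, beside 4.32% of genes rising and 1.15% falling. Oasl2 had a slope of 0.55 ± 0.06 (edgeR adjusted p = 0.00251), Gbp2 0.33 ± 0.04 (0.00544), Oas3 0.31 ± 0.05 (0.0131), Ifi204 0.41 ± 0.07 (0.0144) and Oas2 0.40 ± 0.07 (0.0169). Irf7 (0.27 ± 0.05, 0.0173), Rtp4 (0.24 ± 0.05, 0.0298), Trim30a (0.24 ± 0.05, 0.0375), Ifi27l2a (0.26 ± 0.06, 0.0436) and Zbp1 (0.19 ± 0.04, 0.0436) followed. The median slope was 0.18. This fit has 5 libraries and 2 residual degrees of freedom, and Con and SD 48 h, the ends of the course, are the haemoglobin-poor pair. Without SD 48 h and without that term, 4 members rose (Oas2, Ifi204, Oasl2 and Gbp2), beside 2.08% of 14811 genes.

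Along SASD, 0 of 35 members and 0 of 14602 genes passed edgeR's test over Con and the 5 SASD libraries. At an unadjusted p under 0.05 stood 4 members and 3.03% of genes, and DESeq2 and limma called 0 genes. The lowest p-values were those of Ifi204 (0.38 ± 0.12), Ifi211 (0.48 ± 0.16), Ifi27l2a (0.29 ± 0.10) and Gbp2 (0.12 ± 0.05), each with an edgeR adjusted p of 1.0. The median slope was 0.11 beside -0.01 for all genes, with 30 of 35 above 0, and that of monocyte markers 0.17. With the haemoglobin set of a library as a further term, again 0 of 35 members and 0 of 14602 genes passed edgeR's test. At an unadjusted p under 0.05 of that test stood 10 members and 11.6% of genes, and the members' median slope was 0.11. The SD and SASD slopes share Con, and the difference between them was not tested for the members. Between single libraries of 1 series, 4 members were at least 2-fold higher in SD 24 h than in SD 6 h (Ifi205, Siglec1, Ifi211 and Oasl2; 3.4% of genes), and Ifit3b was lower in SASD 24 h than in SASD 6 h (1.56% of genes).

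**Figure D4:**
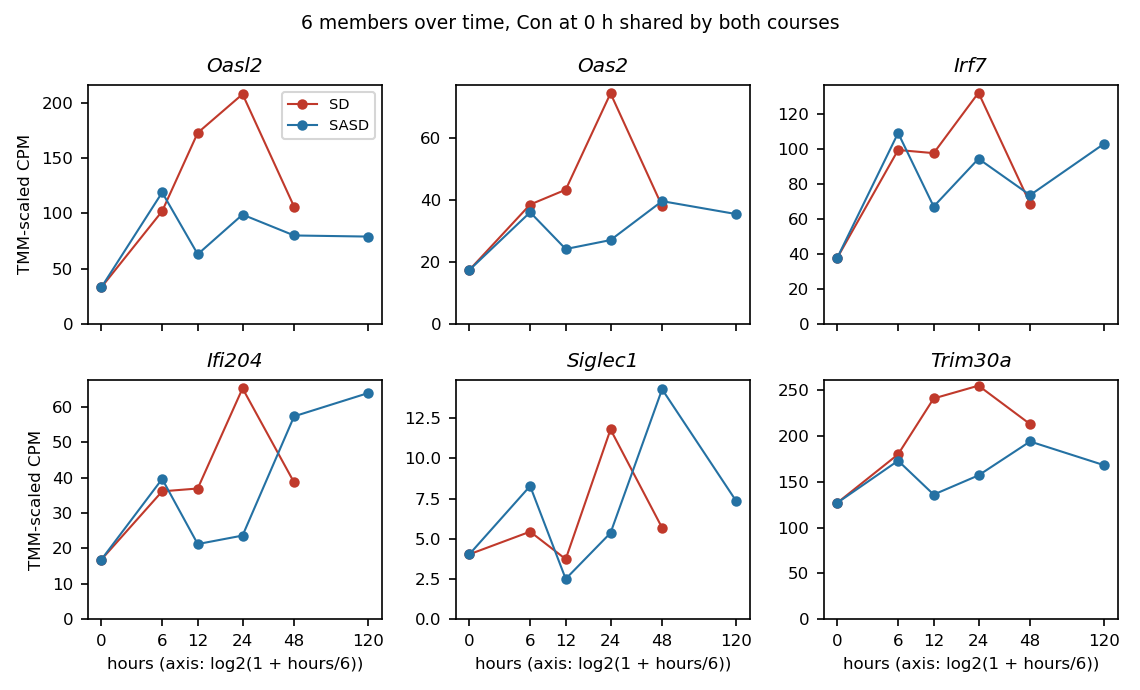
TMM-scaled CPM of Oasl2, Oas2, Irf7, Ifi204, Siglec1 and Trim30a over hours (axis log2 of 1 plus hours divided by 6) in SD and SASD, 1 library per point, with the shared Con at 0 h. Con is the lowest point for all but Siglec1, Oasl2 reaches 208 CPM in SD 24 h against 98.9 in SASD 24 h, and Ifi204 reaches 63.9 CPM in SASD 120 h.

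Few reads came from the interferon genes themselves. The 20 type I and type III genes had 101 counts in all libraries together, of which 93, or 92.1%, were in the 3 haemoglobin-poor libraries and 8 in the other 7. These counts are not scaled to depth. Against totals of 7825120 to 11141786 in the other 7, the haemoglobin-poor libraries were also the 3 deepest, at 13927134 (SD 48 h) to 27501393 (Con). After TMM scaling, the summed level of these genes and Ifng (below) still did not overlap between the 2 sets. It was 2.4 to 4.18 CPM in the haemoglobin-poor set and 0.651 to 1.72 CPM in the other. Ifng alone stood at 1.64 to 2.20 CPM in the former and 0.651 to 1.61 CPM in the latter. Of 18 type I and type III genes with a count, 4 had one in the haemoglobin-rich set. The cause of this split was not tested. Olfactory receptor genes with a count were likewise most frequent in the haemoglobin-poor libraries. Ifnb1 and Ifne had 0 counts everywhere, which allows up to 0.109 (Con) to 0.383 (SASD 24 h) CPM before TMM scaling in a library. Ifng, the type II interferon of T and NK cells, was counted in every library at 0.651 to 2.20 CPM, highest in Con.

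Of the receptors and kinases, 0 of 9 passed in any of the 5 edgeR fits, and 4 were at an unadjusted p under 0.05 along SD. Ifnar1 ran from 118 to 158 CPM, Ifnar2 from 53.9 to 83.9, Ifngr2 from 65.1 to 109, Jak1 from 737 to 969 and Tyk2 from 91.5 to 110. Ifngr1, the ligand-binding chain of the type II receptor, ran from 155 CPM in SASD 24 h to 370 CPM in SD 48 h. Ifnlr1, a chain of the type III receptor, named after its values were seen, stood at 4.92 CPM in Con, 5.54, 13.7, 14.6 and 13.8 CPM in SD and 5.14, 4.13, 8.11, 4.75 and 4.51 CPM in SASD. SD 12, 24 and 48 h lay above all its other libraries. Of the factors outside the members 0 of 7 passed, with Irf1 at 114 to 207 CPM and Irf3 at 68.6 to 130 CPM. Of the other sensors and adaptors 0 of 14 passed, among them Tlr7 (37.1 CPM in Con to 79.3) and Tlr9 (48.0 to 96.4), the endosomal receptors for RNA and DNA. Of the negative regulators 0 of 10 passed, with Socs1, an inhibitor of the JAK kinases, at 5.14 to 14.2 CPM. Socs3, an inhibitor of cytokine signalling named after its values were seen, stood at 44.7 CPM in Con, 103, 326, 285 and 238 CPM in SD and 100, 72.0, 74.5, 69.4 and 65.0 CPM in SASD. Its values were again highest in SD 12, 24 and 48 h. The summed neutrophil markers were highest in the same libraries, at 6332, 7761 and 12115 CPM, against 2202 to 3314 CPM in the others. How many of all genes have this order was not counted, and the part of neutrophils in Ifnlr1 and Socs3 was not tested.

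The longer list of interferon-stimulated genes had medians nearer to 0 than the 35, except for SD over SASD at 6 h (0.05 against -0.02). Against Con its 90 tested genes had a median log2 ratio of 0.17, 68 of them above 0, 10 at an unadjusted p under 0.05 and 0 past edgeR's adjusted threshold. For SD over SASD its median was 0.05, 0.08, 0.25 and -0.09 at 6, 12, 24 and 48 h among genes with enough counts, and 0 of its 90 genes passed the test over the 4 times. Both of its slopes had a median of 0.05. Whether the 35 members differed from this list was not tested.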

How the data were processed

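The deposited counts are read pairs in exons, made by the authors with featureCounts 2.0.3 per the file headers, on the mm10 annotation of a 10x Genomics reference package. No option for strand, multiple mapping or overlapping genes was set. Per the submitters' processing notes they trimmed with Trimmomatic 0.39 and aligned to mm10 with STAR 2.7.9a. The deposited values were raw counts, and all 10 count columns matched a sample label. The members and lists were chosen with earlier results of these data known, and 1 gene of the pathway lists is not reported here.

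Symbols, positions and exon lengths came from GENCODE M21 and promoters from RefSeq. Shared stretches were exact matches of 100 bases between the transcripts of different genes. Genes averaging 10 or more counts in a fit were tested with edgeR 4.0.16 (R 4.3.3, TMM, quasi-likelihood, Benjamini-Hochberg at 0.05), with DESeq2 1.42.0 and limma 3.58.1 as alternatives, and each fit was tested on simulated data. With 1 pool of mice per group, p-values measure only the spread between libraries, which may be technical; the fits have 3 to 8 residual degrees of freedom, or fewer where a library or term is changed. Single libraries were compared by log2 ratios with a prior count of 2 among genes averaging 25 or more counts in the pair (scipy 1.17.1, Python 3.11.15); printed ratios used no prior count. Test values are printed for members past the threshold or, under 4 of them, for the 4 of lowest p, and ratios for up to 4 members per pair of largest size. Other alternatives were scaling, count minimums, leaving out haemoglobin genes or each library or time, the haemoglobin set as a term and hours on a linear scale.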

Additional observations from a re-analysis of the deposited data

How the results depend on the processing

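Of the counts of members that passed, those against Con and along SASD were 0 under every alternative run. For SD against SASD the count was 1 with no count minimum. For differences between times it was 5 with DESeq2's test, 9 with no count minimum, and 0 (without 48 h) to 4 (without 24 h) when a time was left out. Along SD it was 1 with DESeq2's test, 10 with the haemoglobin set as a term, and 0 to 4 (without SD 48 h) when a library was left out. Members lowest in Con numbered 7 with raw totals. The cause of these moves was not tested. No value that had passed a test changed sign, but 4 medians of members did: SASD 24 h over Con from 0.39 to -0.11 with raw totals, the SD slope from 0.17 to -0.03 without Con, SD 6 h over SASD 6 h from -0.02 to 0.01 with a mean count of at least 100, and SD against SASD from 0.09 to -0.01 without 24 h. SD and SASD were paired by time in the reported fit, and there are no further replicate numbers to pair. A single library a group leaves ratios with no replicate check, and Ifi44 and Ifi205 had few counts in the shallow libraries.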
